A study of Mus musculus with 31 samples.

Results

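The 9 genes described here encode transcription factors used as landmarks of blood stem cells: Meis1, Mecom, Hlf, Hoxa9, Hoxb5, Gata2, Prdm16, Mycn and Erg. They were chosen by symbol, and all 9 were found among the 45706 gene identifiers of the count tables. The libraries were made from sorted mouse marrow cells and read by RNA-seq. All mice were wild-type C57BL/6 animals aged 10 weeks that had received an intraperitoneal injection, either of PBS alone or of 1 mg β-glucan, a glucose polymer of fungal cell walls, in PBS. At day 7 there were 4 PBS and 3 β-glucan libraries of long-term hematopoietic stem cells (HSC). At day 28 there were 4 PBS and 4 β-glucan libraries of HSC, and as many of multipotent progenitors (MPP), the cells that HSC give rise to first. The remaining 4 PBS and 4 β-glucan libraries were of HSC from mice given 150 mg/kg of 5-fluorouracil (5-FU), a drug that kills dividing marrow cells, on day 7 and killed 14 days after it. No allele, transgene or Cre was involved, the sort gates are not given in the sources used here, and nothing in the labels says whether replicates were separate mice, so that the spread between libraries may be technical.

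Stem cell identity in marrow rests on a small network of DNA-binding proteins that keep one another and shared targets active. MEIS1 is a homeodomain protein that binds DNA together with HOX proteins such as HOXA9, and HOXB5 is a further HOX protein. GATA2, a zinc finger factor, and ERG, an ETS factor, occupy the same enhancers as TAL1, LYL1, LMO2, RUNX1 and FLI1. MECOM (EVI1) and PRDM16 are related zinc finger proteins that are needed for self-renewal. HLF is a bZIP factor that marks the most primitive cells, and N-MYC is a bHLH activator of growth genes that acts alongside c-MYC.

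Levels are given as CPM, counts relative to library size, on totals scaled by the trimmed mean of M values within each table, and the 31 libraries held 19331663 to 39485556 counts (median 29751430). The cells were checked against markers other than the 9 genes. Relative to HSC, MPP of PBS mice had 14 of 20 HSC marker genes lower and 1 higher, and 7 of 10 MPP marker genes higher, by the test described below. Genes of other lineages were present in libraries of both labels. In PBS mice at day 28, erythroid markers, mainly globins, took 18.7 to 19.7% of HSC counts and 15.7 to 18.4% of MPP counts. Of 15 tested, 10 were lower in MPP and 0 higher. Neutrophil markers took 7.60 to 8.22% and 6.89 to 7.99%, with 2 lower and 1 higher of 14. In HSC at day 7 the same lists took 6.81 to 8.26% and 5.91 to 6.59%. Mast cell, basophil and eosinophil markers were 5 lower and 1 higher of 11 tested in MPP. B cell markers were 7 higher and 0 lower of 12, and dendritic cell markers 8 higher and 0 lower of 10. Of 14 megakaryocyte markers, 12 of the 13 tested were lower in MPP than in HSC, and they summed to 0.0283 to 0.0732% of counts in HSC against 0.0125 to 0.0144% in MPP. Stromal and endothelial markers were lower in MPP too, 10 lower and 2 higher of 18 tested, at 0.0395 to 0.0547% against 0.0285 to 0.0321%, and no gene of either list was at 0 in a whole group. The part of these other cells in the levels below was not tested. In bulk RNA, fewer cells of a type and less RNA per cell cannot be told apart. HSC replicate 2 of the PBS mice at day 28 stood apart from its group: it was the lowest of the 4 libraries for 9 of 9 genes, and its HSC markers summed to 0.110% of counts against 0.138 to 0.182% in the other 3. Results that include it are given with and without it where the call changes. It was singled out in part by these same genes, so leaving it out raises their HSC levels by construction. Calls gained in that way are no separate support for a difference. MPP replicate 1 of the PBS mice carries an HSC tag in its labels beside an MPP title. MPP markers summed to 0.244 to 0.279% of counts in the MPP libraries of PBS mice, this replicate included, against 0.165 to 0.177% in HSC. The title was followed. Its levels of the 9 genes are no check on the label, since they enter the comparison of MPP with HSC. Hoxb5, Mecom, Mycn and Erg lay outside the HSC range on the MPP side, and Meis1, Hlf, Gata2, Hoxa9 and Prdm16 within it. Among the MPP libraries of PBS mice, this replicate was the highest for 8 of the 9 genes, all but Hoxa9.

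Per kilobase of exon, the scale on which genes can be compared, Meis1 had the highest level in HSC of PBS mice at day 28, with 9.05 ± 2.41 CPM per kb (SD, n = 4). Gata2 followed with 7.56 ± 2.32, Hlf with 5.19 ± 1.34, Erg with 3.49 ± 0.559 and Mycn with 1.82 ± 0.725 CPM per kb. The lowest were Hoxa9 (0.852 ± 0.214), Mecom (0.845 ± 0.208), Prdm16 (0.526 ± 0.15) and Hoxb5 (0.232 ± 0.113). Neighbours in this order had overlapping ranges over the 4 libraries except Erg and Mycn. In MPP of PBS mice at day 28 the order changed: Erg was the second at 5.42 ± 0.736 CPM per kb, Hoxa9 the fifth at 1.14 ± 0.161, and Mecom the eighth at 0.364 ± 0.0614. In HSC at day 7, levels per kb of Meis1 (35.2 ± 3.57) and Hlf (26.4 ± 1.8) did not overlap with each other or with Gata2 (12.3 ± 1.99), while Gata2 and Erg (12 ± 2.03) overlapped.

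**Figure D1:**
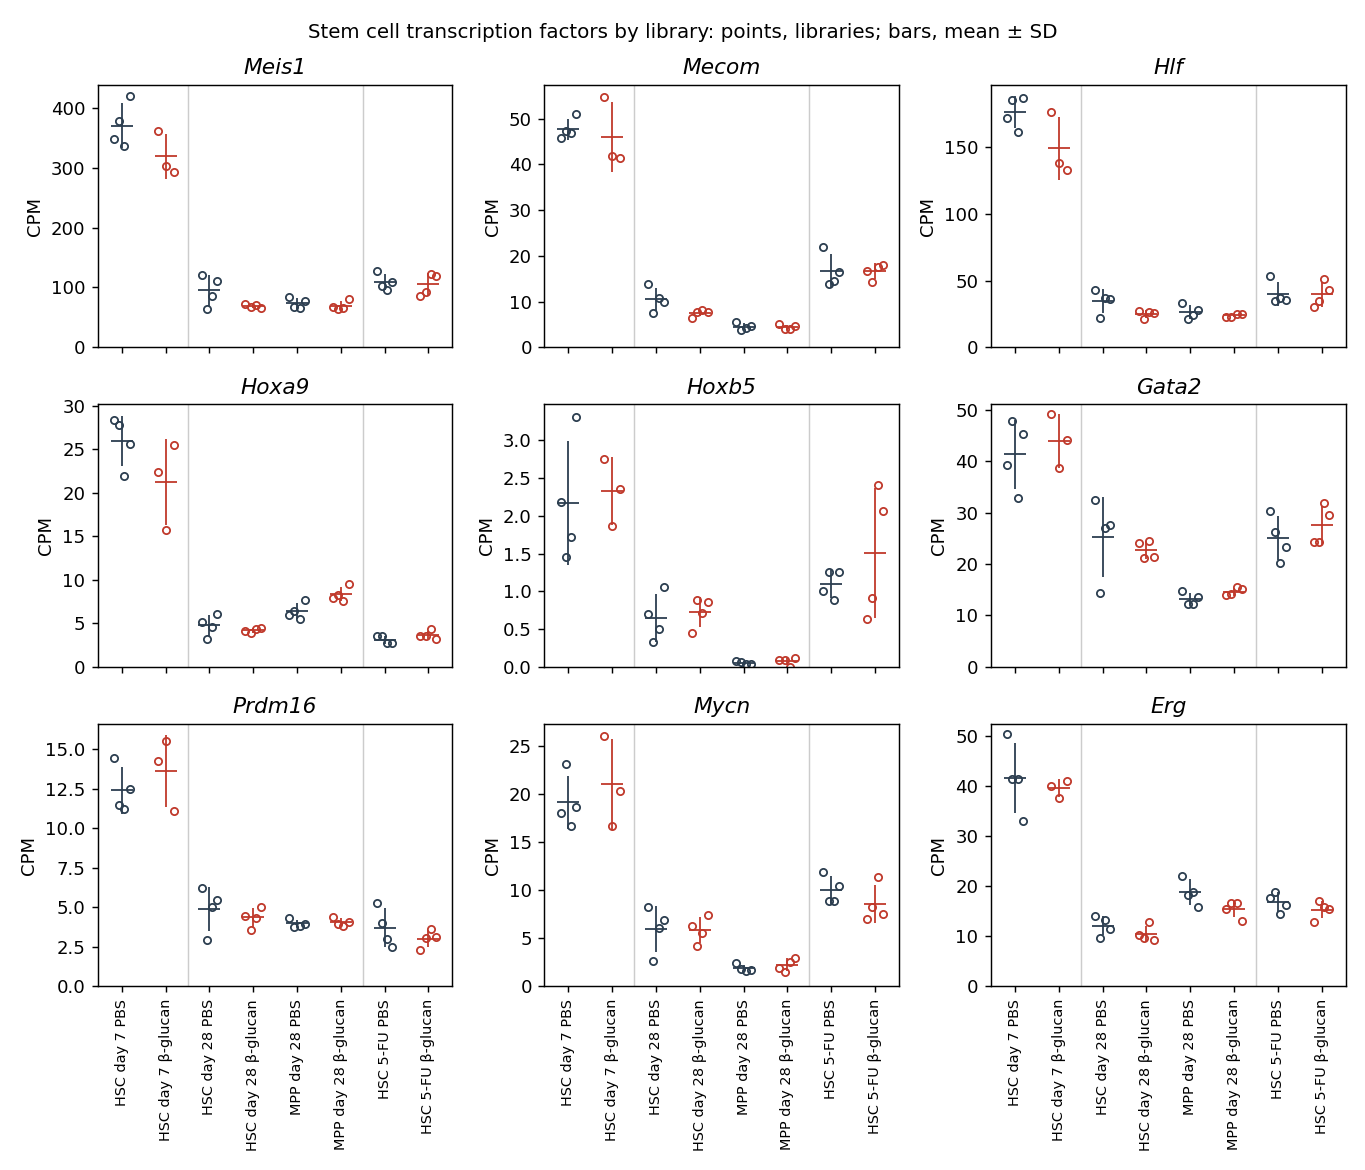
Level of each of the 9 factors in every library, in CPM (vertical axis, linear, a scale for each panel), for the 8 groups on the horizontal axis; points are libraries and bars the mean and SD. Group means at day 7 lie above those of the other tables for all 9 genes, though single Hoxb5 libraries overlap, and Hoxb5 lies near 0 in both MPP groups.

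Gene positions are those of the mm10 build. Meis1 (ENSMUSG00000020160) is at chr11:18879817-19018985 and Hlf (ENSMUSG00000003949) at chr11:90336536-90390895, both on the minus strand, and Hoxb5 (ENSMUSG00000038700), in the Hoxb cluster, at chr11:96303336-96306121 on the plus strand. Hoxa9 (ENSMUSG00000038227), in the Hoxa cluster, is at chr6:52223100-52231089 on the minus strand and Gata2 (ENSMUSG00000015053) at chr6:88193891-88207030 on the plus strand. The other 4 are on minus strands: Mecom (ENSMUSG00000027684) at chr3:29951296-30548008, Prdm16 (ENSMUSG00000039410) at chr4:154316125-154636873, Mycn (ENSMUSG00000037169) at chr12:12936096-12941914 and Erg (ENSMUSG00000040732) at chr16:95359169-95586593. Counts were not made by strand, and some exon bases are shared with other genes, so that reads there cannot be assigned: 9.77% of the exon bases of Meis1 with Gm37818 and 8.51% with the antisense Gm16140, 8.01% of those of Hoxa9 with ENSMUSG00000106811, 3.59% of those of Hoxb5 with the antisense Hoxb5os, 1.17% of those of Prdm16 with B230104I21Rik and 0.652% of those of Mecom with Mecomos. Hlf, Gata2, Mycn and Erg share none.

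The bases before the transcription start are shown for the genes whose difference between MPP and HSC turned out largest in each direction. They come from RefSeq (GRCm38.p6, the assembly of mm10), which held windows for 8 of the 9 genes, all but Hoxb5. Each run is written 5′ to 3′ on the strand of its gene, ends where annotated exons begin or the window ends, and has matches to any of 6 motifs in capitals. The first 3 genes were lower in MPP.
Mecom, chr3:30509823-30510009, minus strand: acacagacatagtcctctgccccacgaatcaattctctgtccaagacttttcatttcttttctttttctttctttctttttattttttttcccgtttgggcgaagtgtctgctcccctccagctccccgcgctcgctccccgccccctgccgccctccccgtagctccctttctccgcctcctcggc
Gata2, chr6:88193641-88193890, plus strand: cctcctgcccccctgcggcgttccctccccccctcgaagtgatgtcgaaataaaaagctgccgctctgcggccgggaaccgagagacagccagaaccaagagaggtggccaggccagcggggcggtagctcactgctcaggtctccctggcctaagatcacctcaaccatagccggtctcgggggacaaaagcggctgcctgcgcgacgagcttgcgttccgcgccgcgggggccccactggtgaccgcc
Mycn, chr12:12941915-12942086, minus strand: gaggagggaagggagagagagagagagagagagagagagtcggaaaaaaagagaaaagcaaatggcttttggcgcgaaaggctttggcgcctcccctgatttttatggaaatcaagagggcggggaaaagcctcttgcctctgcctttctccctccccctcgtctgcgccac
The next genes were higher in MPP, Hoxa9 by the test in β-glucan mice only, and Erg is shown at its outermost and at an inner start. The runs shown for Mecom and Hoxa9 also lie inside the gene bounds given above, so they precede inner starts.
Hoxa9, chr6:52227371-52227620, minus strand: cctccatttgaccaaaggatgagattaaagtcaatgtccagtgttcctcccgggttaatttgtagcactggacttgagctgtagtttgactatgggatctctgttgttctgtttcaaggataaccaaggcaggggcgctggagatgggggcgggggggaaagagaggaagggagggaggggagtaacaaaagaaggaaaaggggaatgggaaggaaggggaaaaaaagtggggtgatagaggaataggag
Erg, outermost, chr16:95586594-95586843, minus strand: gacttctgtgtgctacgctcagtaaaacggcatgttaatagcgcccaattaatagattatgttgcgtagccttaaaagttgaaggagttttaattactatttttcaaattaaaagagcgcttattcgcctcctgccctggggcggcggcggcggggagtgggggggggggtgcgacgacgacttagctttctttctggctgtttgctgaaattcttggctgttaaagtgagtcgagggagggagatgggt
Erg, inner, chr16:95459349-95459598, minus strand: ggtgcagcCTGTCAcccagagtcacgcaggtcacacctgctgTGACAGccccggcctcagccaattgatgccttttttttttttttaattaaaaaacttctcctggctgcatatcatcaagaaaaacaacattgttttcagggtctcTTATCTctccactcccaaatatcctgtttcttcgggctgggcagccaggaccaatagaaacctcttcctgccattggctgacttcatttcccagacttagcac
The motifs, searched on both strands, were AGATAA of GATA factors, CCGGAA of ETS factors, the E-box CACGTG of MYC proteins, TGACAG of TALE homeodomain proteins, TTANGTAA of HLF and its relatives, and TGATTNAT of HOX with PBX. AGATAA was in 1 of the 12 windows of these genes (Erg, inner) and in 9.99% of all 32851 RefSeq windows, and CCGGAA was in 2 (Meis1 and Hlf) and in 12%. TGACAG was in 2 (the inner start of Erg, with one match on each strand, and a Mecom window that lies in an exon) and in 15.9%. CACGTG, TTANGTAA and TGATTNAT were in 0 of the 12, against 6.02, 2.06 and 2.82% of all windows. A match is a stretch of letters, not a measured binding site, and none of the 6 was found in the window of Gata2, with 22 CpG, or of Hoxa9, with 3, where the median over all windows was 6.

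MPP and HSC were compared first in PBS mice at day 28, with edgeR's quasi-likelihood test. Its p-values were adjusted by the Benjamini-Hochberg method across every gene that was tested, and a gene was called at an adjusted p under 0.05. Mecom, Gata2 and Mycn were lower in MPP and Erg was higher, so that 4 of the 8 genes tested were called, where 21.7% of all 16122 genes tested were called, 12.1% lower and 9.58% higher. Of these 8, 3 had groups that did not overlap (Mecom, Mycn and Erg), against 26.5% of genes tested. Hoxb5 did not pass the filter on low counts in this comparison.

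Mycn differed most among the genes tested. Its levels were 8.23, 2.65, 6.09 and 6.93 CPM in the HSC libraries and 2.39, 1.82, 1.62 and 1.65 CPM in MPP. All MPP libraries lay below all HSC libraries, though replicate 2 of the HSC came close to them. The log2 fold change was -1.68 ± 0.30 (SE; adjusted p = 0.00258, edgeR). Mecom was at 13.8, 7.53, 10.7 and 9.98 CPM in HSC and at 5.57, 3.81, 4.17 and 4.57 CPM in MPP, again with no overlap. Its log2 fold change was -1.22 ± 0.18 (adjusted p = 0.00103, edgeR). Gata2 was at 32.5, 14.3, 27.0 and 27.6 CPM in HSC and 14.7, 12.1, 12.2 and 13.6 CPM in MPP. Only HSC replicate 2 reached into the MPP range, and the log2 fold change was -0.95 ± 0.20 (adjusted p = 0.00658, edgeR).

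Erg went the other way. It was at 14.0, 9.70, 13.2 and 11.4 CPM in HSC and at 22.1, 18.3, 18.9 and 15.9 CPM in MPP, with every MPP library above every HSC library and a log2 fold change of 0.63 ± 0.13 (adjusted p = 0.00701, edgeR). GATA2 and ERG are often found at the same enhancers, and their mRNAs thus differed in opposite directions between the same libraries.

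Hoxb5, whose reporter activity has been used to isolate long-term HSC, had 27, 11, 16 and 31 counts in the HSC libraries and 3, 2, 1 and 1 in MPP. Summed over libraries this was 85 against 7 counts, a ratio of HSC to MPP of 11.5 per count sequenced (exact 95% interval 5.35 to 29.5, counting error only). Without a filter on low counts its log2 fold change was -3.51 ± 0.51 (adjusted p = 2.51e-05, edgeR).

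The other 4 genes were not called in PBS mice. Meis1 was at 121, 64.3, 85.8 and 110 CPM in HSC and 83.9, 67.2, 66.3 and 77.8 CPM in MPP, with a log2 difference of -0.38 ± 0.16 (adjusted p = 0.123, edgeR). Hlf was at 43.1, 22.0, 36.9 and 36.6 CPM in HSC and 33.1, 21.2, 23.9 and 28.2 CPM in MPP, with -0.39 ± 0.19 (adjusted p = 0.165). In both genes HSC replicate 2 lay within or below the MPP range, and the other 3 HSC libraries above all MPP libraries. Prdm16 (-0.31 ± 0.20) and Hoxa9 (0.42 ± 0.18, adjusted p = 0.122) also had overlapping groups. Without HSC replicate 2, 7 of the 8 genes were called, and 31.1% of all genes tested: Meis1 (-0.52 ± 0.11, adjusted p = 0.00420, edgeR), Hlf (-0.55 ± 0.13, adjusted p = 0.00776) and Prdm16 (-0.49 ± 0.12, adjusted p = 0.0106) joined the first 4. That replicate was picked in part for its low levels of these genes, so the added calls are no separate support. Limma's voom with quality weights called the same 7, and 31% of all genes. With the replicate number as a block 6 were called, and 21.8% of all genes.

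**Figure D2:**
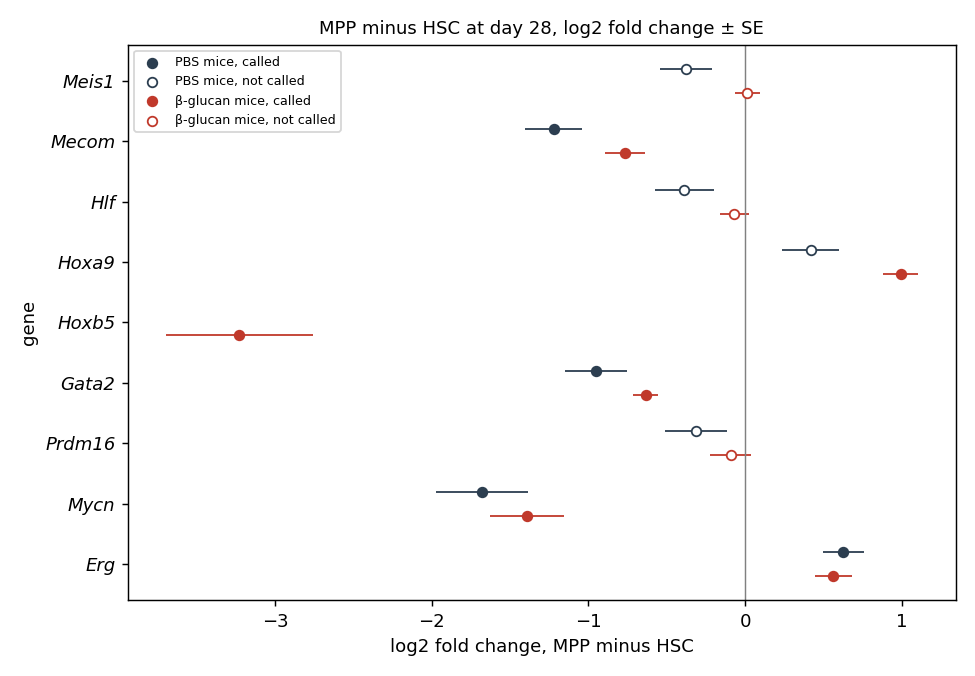
Log2 fold change of MPP over HSC at day 28 (horizontal axis, ± SE) for each factor, in PBS and in β-glucan mice, with filled points for genes called at an adjusted p under 0.05. Mycn, Mecom and Gata2 lie below 0 and Erg above 0 in both sets of mice; Hoxb5 entered the test in β-glucan mice through HSC alone.

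In β-glucan mice the comparison of MPP with HSC used separate libraries. Hoxb5 passed the filter only through HSC, where it is high, and is left out of the counts. Of the other 8 genes 5 were called, 3 lower and 2 higher in MPP, where 35.6% of all 15945 genes tested were called (18% lower, 17.7% higher). The same 5 had groups that did not overlap, against 33.8% of genes tested. Mycn (-1.39 ± 0.23, adjusted p = 0.00111), Mecom (-0.77 ± 0.13, adjusted p = 0.000957) and Gata2 (-0.63 ± 0.08, adjusted p = 0.000231) were lower and Erg (0.56 ± 0.12, adjusted p = 0.00382) higher, as in PBS mice.

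Hoxa9, the HOX partner of MEIS1, was called here. Its levels were 4.08, 3.83, 4.37 and 4.46 CPM in HSC and 7.94, 8.27, 7.61 and 9.46 CPM in MPP, a log2 fold change of 0.99 ± 0.11 (adjusted p = 0.000105, edgeR). Hoxb5, the other HOX gene, had 14, 31, 23 and 27 counts in HSC and 3, 3, 0 and 3 in MPP, and was thus lower in every MPP library. Over libraries this was 95 against 9 counts, a ratio of 9.20 per count sequenced (exact 95% interval 4.65 to 20.7). Meis1 (0.02 ± 0.08), Hlf (-0.07 ± 0.09) and Prdm16 (-0.09 ± 0.13) were not called, and their groups overlapped. Levels of Meis1 were 73.2, 66.8, 70.3 and 66.2 CPM in HSC and 67.8, 64.6, 65.5 and 80.7 CPM in MPP, so that the HSC libraries of β-glucan mice spanned less than those of PBS mice.

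Ratios of 2 genes within a library do not depend on how libraries are scaled. Erg had 1.17 ± 0.118 counts per Mecom count in HSC of PBS mice at day 28 (range 1.02 to 1.29, SD, n = 4) and 4.20 ± 0.590 in MPP (3.48 to 4.80). In β-glucan mice the ratios were 1.39 ± 0.187 (1.21 to 1.56) and 3.56 ± 0.765 (2.78 to 4.22). HSC replicate 2 of the PBS mice, the lowest library in single levels, had 1.29, the highest of its group and within the range of the HSC of β-glucan mice. HSC of the other tables had ratios of 0.876 ± 0.184 and 0.872 ± 0.131 at day 7 and 1.03 ± 0.231 and 0.927 ± 0.183 after 5-FU, PBS first. No HSC library of any table reached the lowest MPP library. Hoxa9 had 0.460 ± 0.105 counts per Mecom count in HSC and 1.44 ± 0.295 in MPP of PBS mice, and 0.559 ± 0.0560 and 1.90 ± 0.246 in β-glucan mice. The ratios are descriptions of genes whose difference was already seen, and carry no test.

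**Figure D3:**
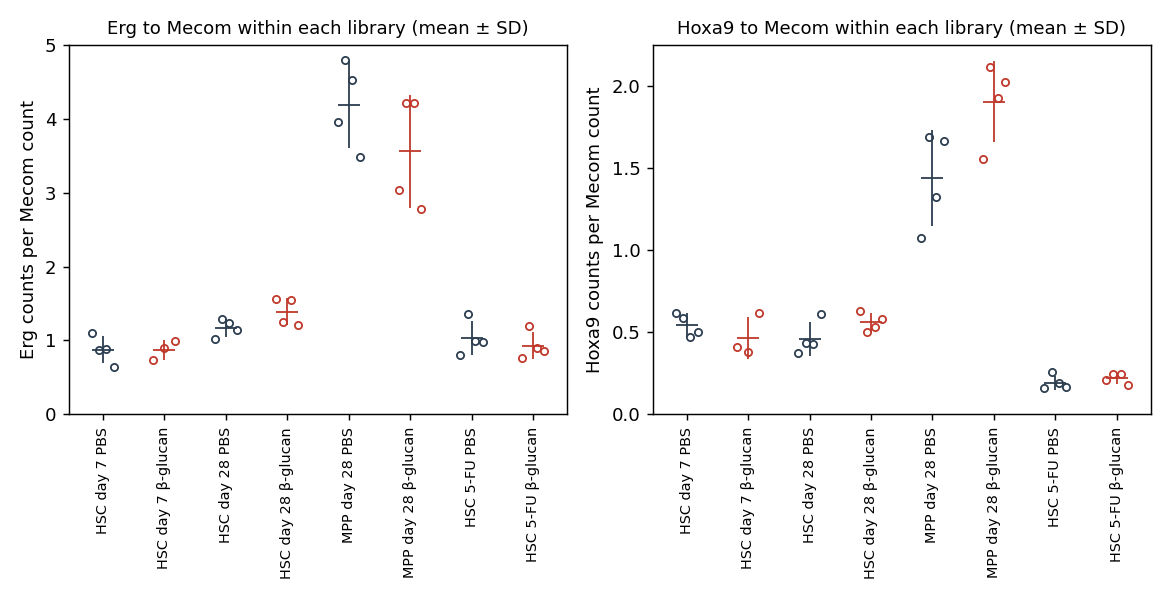
Counts of Erg and of Hoxa9 per count of Mecom within each library (vertical axes), by group; points are libraries and bars the mean and SD. Both MPP groups lie above all HSC groups, with Erg at 2.78 to 4.80 per Mecom count in MPP.

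The question put to the β-glucan groups was whether HSC or MPP of mice given it carried other levels of these factors than those of PBS mice. In none of the 4 comparisons was one of the 9 genes called by edgeR's quasi-likelihood test, and in none did the groups of a gene fail to overlap. In the order day 7 HSC, day 28 HSC, day 28 MPP and 5-FU HSC, the shares of all genes called were 6.72, 0.0374, 4.63 and 0.0446%. Groups did not overlap for 18.9, 8.83, 12.4 and 4.61% of genes. At an unadjusted p under 0.05 there were 1, 3, 2 and 0 of the 9 genes, where 20, 17, 19.3 and 7.54% of all genes had one. DESeq2's Wald test called 0, 0, 1 and 0 of the 9, and 11.6, 4.46, 9.11 and 0.938% of all genes. Voom of limma, with quality weights, called 0, 3, 0 and 0 of the 9, and 10.6, 3.73, 4.04 and 0.267% of all genes.

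At day 28, 3 genes of HSC were lower in β-glucan mice without passing the threshold. Meis1 was at 73.2, 66.8, 70.3 and 66.2 CPM in β-glucan mice, against the 64.3 to 121 CPM of PBS mice given above, with a log2 difference of -0.47 ± 0.16 (adjusted p = 0.182, edgeR). Mecom was at 6.52, 7.66, 8.27 and 7.67 CPM, against 7.53 to 13.8 CPM, and differed by -0.49 ± 0.17 (adjusted p = 0.189). Hlf was at 27.2, 21.1, 26.3 and 25.9 CPM, against 22.0 to 43.1 CPM, and differed by -0.47 ± 0.17 (adjusted p = 0.213). In each of the 3, PBS replicate 2 lay within or below the β-glucan range and the other 3 PBS libraries above it. Of the 9 genes 8 had a negative difference, with a median of -0.19 beside -0.02 over all genes tested. Without PBS replicate 2, Meis1 (-0.62 ± 0.10) and Hlf (-0.64 ± 0.10) passed, both at an adjusted p of 0.0415 by edgeR, and Mecom (-0.62) had an adjusted p of 0.0947. In that fit 0.313% of all genes were called. The library left out was picked in part for its low levels of these genes, so the 2 calls are no separate support. HSC markers showed the same library: they summed to 0.182, 0.110, 0.138 and 0.173% of counts in PBS HSC, and to 0.110 to 0.130% in β-glucan HSC. Of the 20 HSC markers 19 had a negative difference and 0 were called. The part of marker content in the lower levels was not tested.

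In HSC at day 7, Meis1 was at 348, 378, 336 and 420 CPM in PBS mice and 362, 303 and 292 CPM in β-glucan mice (log2 difference -0.22 ± 0.10, adjusted p = 0.266, edgeR). Hlf was at 172, 185, 161 and 187 CPM and at 176, 138 and 133 CPM (-0.24 ± 0.10, adjusted p = 0.222). In both genes β-glucan replicate 1 lay within the PBS range and the other 2 below it. Without that library Hlf passed at -0.38 ± 0.09 (adjusted p = 0.0255), as did 7.52% of all genes. It was the β-glucan library nearest to the PBS levels of Hlf, so leaving it out widens the difference by construction. Erythroid markers fell at day 7, 13 of 15 tested, from 6.81 to 8.26% of counts in PBS mice to 2.27 to 3.20% in β-glucan mice. B cell markers fell too, 11 of 12, and neutrophil markers rose, 10 of 14, from 5.91 to 6.59% to 8.49 to 12.3%. Their part in the levels of the 9 genes was not tested. The remaining 7 genes differed by -0.29 to 0.14 on the log2 scale, with adjusted p of 0.360 to 0.905.

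In MPP at day 28 the genes with the lowest p were Hoxa9 and Erg, with differences of opposite sign. The call of Hoxa9 between MPP and HSC, in β-glucan mice only, used the same β-glucan MPP libraries. Hoxa9 was at 5.98, 6.43, 5.52 and 7.62 CPM in PBS mice and at 7.94, 8.27, 7.61 and 9.46 CPM in β-glucan mice, with 1 PBS library reaching the lowest β-glucan library and a log2 difference of 0.37 ± 0.12 (adjusted p = 0.0851, edgeR). Erg was at 22.1, 18.3, 18.9 and 15.9 CPM and at 15.5, 16.5, 16.6 and 13 CPM (-0.29 ± 0.11, adjusted p = 0.138). Hoxa9 passed with DESeq2's Wald test (0.37 ± 0.12, adjusted p = 0.0342) and with the replicate number as a block (adjusted p = 0.0399), where 5.78% of all genes were called. The other 6 genes tested lay between -0.16 and 0.23. Beside them, 9 of 12 B cell markers fell (0.345 to 0.429% of counts in PBS MPP, 0.305 to 0.404% in β-glucan MPP) and 4 of 13 megakaryocyte markers tested rose (0.0125 to 0.0144%, 0.0152 to 0.0223%). Of 12 T and NK cell markers 7 fell, with sums of 0.0541 to 0.0623% and 0.0581 to 0.0637%, and of 14 neutrophil markers 5 fell and 3 rose, with sums of 6.89 to 7.99% and 6.11 to 7.02%. The part of these shifts was not tested. Hoxb5 was too low to be tested, with 3, 2, 1 and 1 counts against 3, 3, 0 and 3.

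After 5-FU the lowest adjusted p of the 9 genes was 0.844 (Mycn, edgeR). Mecom was at 22.0, 13.9, 14.4 and 16.6 CPM in PBS mice and 16.8, 14.3, 17.7 and 18 CPM in β-glucan mice, a log2 difference of -0.00 ± 0.14. Hoxb5 had the widest spread, at 1.00, 1.26, 0.88 and 1.25 CPM against 0.64, 0.91, 2.41 and 2.07 CPM (0.44 ± 0.39). Among the β-glucan libraries, replicate 1 was the lowest for 7 of the 9 genes and replicate 3 the highest for 7, and their HSC markers summed to 0.143 and 0.197% of counts. Mast cell, basophil and eosinophil markers summed to 0.216 to 0.299% in PBS mice and 0.370 to 0.504% in β-glucan mice, with 1 of 10 tested called and Tpsb2 at 0 in all β-glucan libraries. Stromal and endothelial markers summed to 0.0316 to 0.0561% and 0.0676 to 0.0758%, with 1 of 20 called, and erythroid markers to 12.7 to 16.6% and 9.49 to 12.6%, with 0 called and 15 of 15 tested negative. Their part in the levels of the 9 genes was not tested.

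**Figure D4:**
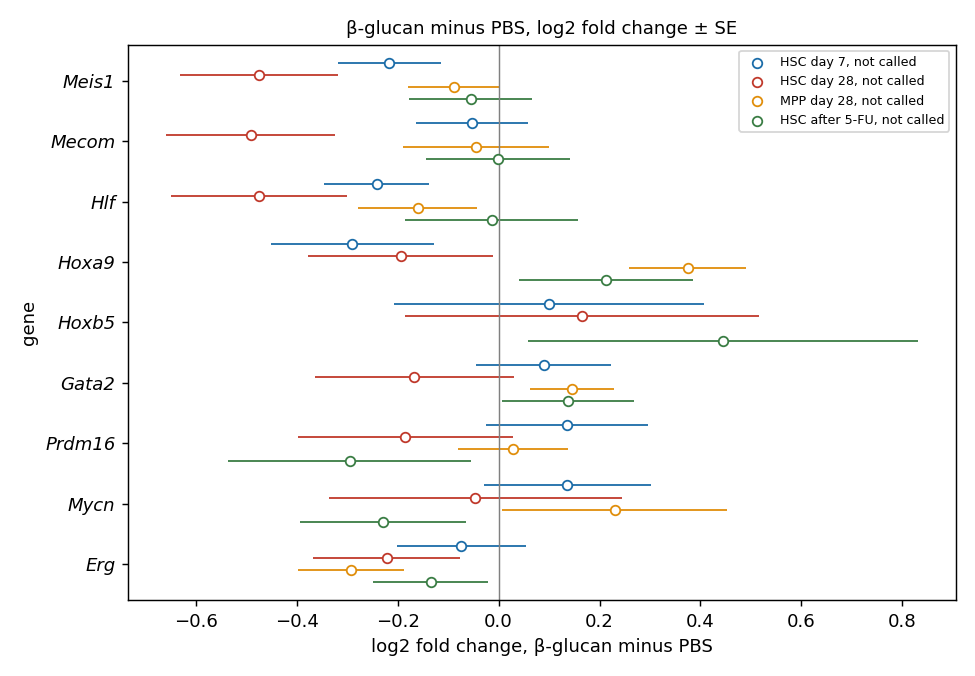
Log2 fold change of β-glucan over PBS (horizontal axis, ± SE) for each factor in the 4 comparisons. No point is filled, since none reached an adjusted p under 0.05, and the differences of Meis1, Mecom and Hlf in HSC at day 28 lie between -0.49 and -0.47.

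A further test asked whether the response to β-glucan differed between cell types or times, as a contrast of 4 groups. None of the 9 genes was called by edgeR, where 0.00599% of all genes were for MPP against HSC at day 28, 4.82% for HSC at day 28 against day 7, and 0.106% for HSC after 5-FU against day 28. DESeq2 and voom called 0 of the 9 as well, and 1, 1 and 0 of them had an unadjusted p under 0.05, where 6.19, 19 and 11.3% of all genes had one. The gene of the lowest p in the first was Hoxa9 (0.56 ± 0.22, adjusted p = 0.751), in the second Mecom (-0.47 ± 0.21, adjusted p = 0.238) and in the third Mecom (0.47 ± 0.23, adjusted p = 0.459). Among the 8 genes other than Hoxb5, the 5 calls in β-glucan mice and 4 in PBS mice between MPP and HSC are therefore not shown to differ.

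Levels in different tables were normalised separately and are set side by side without a test. In PBS mice, mean levels in HSC at day 7 were 5.45 times those at day 28 for Hoxa9, 5.09 times for Hlf, 4.55 for Mecom, 3.89 for Meis1, 3.44 for Erg, 3.35 for Hoxb5, 3.20 for Mycn, 2.53 for Prdm16 and 1.63 for Gata2. HSC markers took 0.474 to 0.529% of counts at day 7 against 0.110 to 0.182% at day 28, and erythroid markers 6.81 to 8.26% against 18.7 to 19.7%. Table, sort, day and content of other cells cannot be told apart here. After 5-FU, mean levels in PBS mice were 0.656 times those at day 28 for Hoxa9 and 0.752 times for Prdm16, and between 0.986 and 1.70 times for the other 7.

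Over the 31 libraries, with log2 CPM centred within each table, 28 of the 36 pairs of these genes had a positive Pearson r (median 0.488). The points share libraries, depth and cell content, so the values are descriptions. Centring by table and not by group leaves the day 28 difference between MPP and HSC in them. The values therefore in part restate that comparison. Meis1 and Hlf went together most closely (0.908), then Gata2 with Mycn (0.900) and Mecom with Gata2 (0.857). Erg had its lowest value with Hoxb5 (-0.670) and its highest with Hoxa9 (0.557). Among 14800 other genes, the one closest to Meis1 was Angpt1 (0.918), which encodes a ligand of TIE2, and to Mycn Fgd5 (0.932), a gene used to mark HSC. For Hoxb5 it was Ndn (0.935), for Gata2 Tgfbr3 (0.926), for Erg Gm12020 (0.924), for Hlf Coq8a (0.892), for Hoxa9 Il1r1 (0.865), the interleukin-1 receptor, and for Prdm16 Deptor (0.715). The mean of all 9 was closest to Csgalnact1 (0.881), and other genes near it were Myct1 (0.849), Procr (0.835), the protein C receptor used to sort HSC, and Coq8a (0.823).

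**Figure D5:**
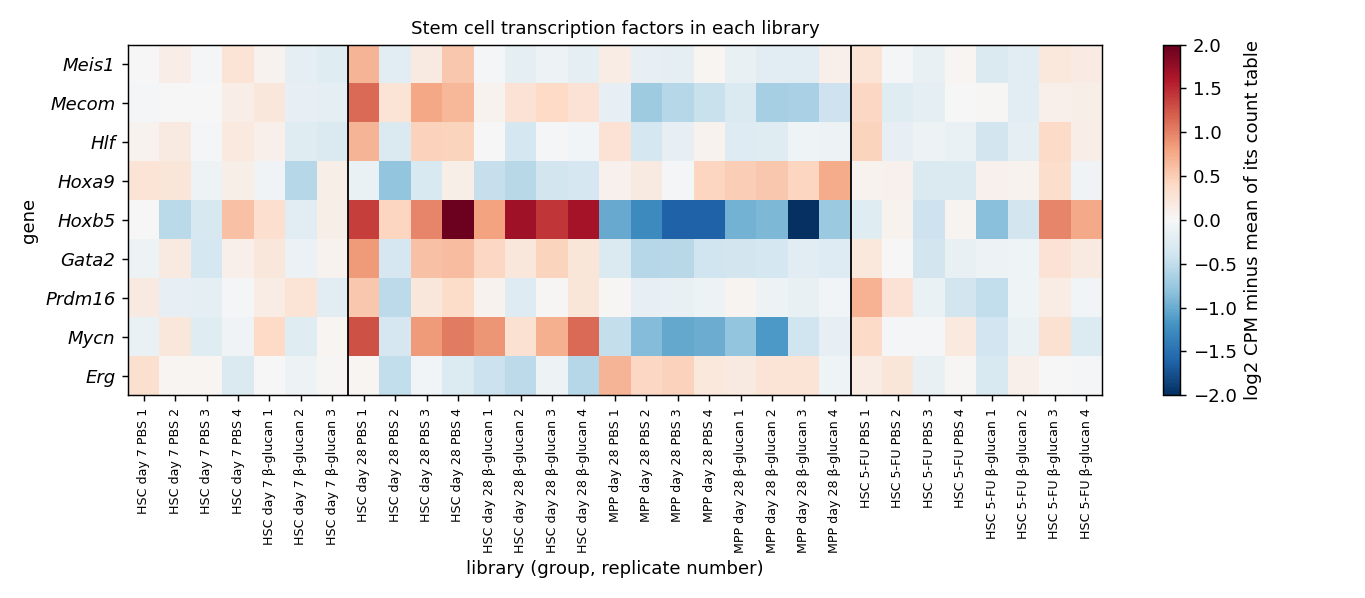
Log2 CPM (prior count 2) of each factor minus its mean over the table, for the 31 libraries ordered by table and group; the colour scale is in log2 units. In the day 28 table Mecom, Gata2, Mycn and Hoxb5 are low and Erg and Hoxa9 high in MPP, and HSC replicate 2 of PBS mice is the lowest of its group for all 9.

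Related factors were read from lists of genes that work with these 9. Their counts are read against the 21.7% of all genes called between MPP and HSC in PBS mice and the 35.6% in β-glucan mice (edgeR). Of 7 partners of GATA2 and ERG, 4 fell in MPP relative to HSC in PBS mice and 4 in β-glucan mice, and none rose. Tal1, a bHLH factor of the same complex, was at 21.3 to 23.5 CPM in HSC and 12.7 to 15.3 CPM in MPP of PBS mice, with a log2 fold change of -0.62 ± 0.09 (adjusted p = 0.000745), and fell by 0.92 ± 0.10 in β-glucan mice. Gfi1b, which encodes a transcriptional repressor needed in the erythroid and platelet lineages, fell by 0.42 ± 0.09 and 0.40 ± 0.06. Of 27 other Hox and TALE genes 10 were tested in PBS mice, 2 lower and 1 higher, and 11 in β-glucan mice, 3 lower and 2 higher, shares not far from those of all genes. Hoxa7, a neighbour of Hoxa9, was at 4.70 to 6.24 CPM in HSC and 10.0 to 13 CPM in MPP of PBS mice (1.07 ± 0.13, adjusted p = 0.000261, edgeR), and was called in β-glucan mice too, at 1.20 ± 0.13.

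Of 16 close relatives of the 9 genes, 4 were lower and 1 higher in MPP in PBS mice, where 21.7% of all genes were called, and 7 lower and 4 higher in β-glucan mice, where 35.6% were. Myc, the relative of Mycn, rose while Mycn fell: it was at 146 to 180 CPM in HSC and 227 to 262 CPM in MPP of PBS mice, with a log2 fold change of 0.57 ± 0.08 (adjusted p = 0.000863, edgeR), and 0.78 ± 0.07 in β-glucan mice. Gata1, the relative of Gata2 that drives red cell and platelet formation, fell by 0.49 ± 0.09 in PBS mice. Of 20 other regulators known from stem cell work, 19 were tested, with 2 lower in PBS mice, a smaller share than the 21.7% of all genes, and 5 lower and 3 higher in β-glucan mice, a share near the 35.6%. Foxo3, which keeps HSC quiescent, fell by 0.71 ± 0.08 and 0.82 ± 0.11.

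With β-glucan, these 4 lists held no called gene in HSC at day 28 or after 5-FU. At day 28 the lowest p was that of Gfi1, a repressor that restrains HSC division (1.06 ± 0.20, adjusted p = 0.0920, edgeR). At day 7, 2 of the other regulators rose and 2 fell in HSC. Id2 and Id1, inhibitors of bHLH factors, rose by 0.63 ± 0.12 (adjusted p = 0.00839) and 0.95 ± 0.19 (adjusted p = 0.0114), and Foxo3 fell by 0.68 ± 0.13 (adjusted p = 0.00880). These 3 calls were lost without β-glucan replicate 3, at adjusted p of 0.0560, 0.0591 and 0.0560 for Id2, Id1 and Foxo3, and that of Id1 also without replicate 2 (0.0603). In MPP at day 28, Myc rose by 0.30 ± 0.07 (adjusted p = 0.0297) and Lyl1 by 1.35 ± 0.33 (adjusted p = 0.0355). Lyl1, a bHLH partner of GATA2, was at 6.28, 6.49, 5.62 and 7.85 CPM in PBS MPP and at 9.35, 8.55, 21.7 and 27.7 CPM in β-glucan MPP, so that replicates 3 and 4 of the latter were well above replicates 1 and 2. In HSC at day 28 Lyl1 was at 11.9, 10.7, 11.1 and 8.91 CPM in PBS mice and 12.9, 12.9, 25.6 and 47.3 CPM in β-glucan mice. The same replicate numbers were high there, and Lyl1 was not called (1.20 ± 0.36, adjusted p = 0.158, edgeR). The labels do not say whether HSC and MPP libraries with a shared number came from the same mouse. The calls of Lyl1 and Myc in MPP were both lost without PBS replicate 2, 3 or 4 or β-glucan replicate 3 or 4, and that of Lyl1 also without PBS replicate 1, at adjusted p of up to 0.110 for Lyl1 and 0.0984 for Myc. The call of Myc was also lost in a fit of all 8 groups (adjusted p = 0.164), and that of Lyl1 with voom (adjusted p = 0.0861).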

How the data were processed

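The authors deposited 3 tables of whole-number counts per gene, with 7, 16 and 8 libraries. They used bcl2fastq 1.8.4, featureCounts and the mm10 build, per the submitters' processing notes, and name no aligner in the sources used here. The SMARTer kit named in the labels' protocols keeps no strand. Columns name neither day nor 5-FU. Tables were assigned by their number of libraries and by the MPP columns, the third by elimination, and P and G were read as PBS and β-glucan. Symbols came from GENCODE M21 (45143 of 45706 identifiers).

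Counts were tested with edgeR 4.0.16 (R 4.3.3): filterByExpr with a minimum count of 10, TMM scaling, a quasi-likelihood fit of the groups compared and Benjamini-Hochberg adjustment over all genes tested. The SE is the log2 fold change divided by the square root of F. CPM per kb used the exon length in the tables. All 45 replicate pairs differed beyond sampling noise (chi-square per gene 6.75 to 50.3). Alternatives were DESeq2 1.42.0, limma 3.58.1 (voom), other scalings and filters, a replicate block and each library left out. Same-numbered libraries of the groups compared correlated at -0.076 to 0.149 and were not taken as pairs.

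All 9 genes are named. From each list of related factors up to 3 genes of the lowest p were eligible to be named, and for likeness the closest gene to each; some genes that this rule selects are not reported here. The members and lists were chosen with earlier results of these data known.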

Additional observations from a re-analysis of the deposited data

Results flagged for a closer look

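Hlf, the bZIP factor, was at 53.6 CPM in replicate 1 of HSC from PBS mice after 5-FU, while the other 3 libraries of the group lay between 35.0 and 36.8 CPM. The gap to the nearest library took 0.903 of the range of the group, above the 0.829 that Dixon's criterion sets for 4 libraries. The same library was the highest of its group for 6 of the 9 factors, and its HSC markers summed to 0.198% of counts against 0.154 to 0.160% in the other 3. Over the 63 sets of 4 libraries examined this was the single set marked, where chance marks about 1 in 20.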

How the results depend on the processing

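The count of the 9 genes called moved in the following settings. In HSC at day 28 it went from 0 to 3 with limma's voom (Meis1, Hlf and Mecom, each -0.64, adjusted p = 0.0265, 0.0310 and 0.0400), and to 2 without PBS replicate 2, with 0 to 2 over the libraries left out. In PBS mice, MPP against HSC went from 4 to 7 with voom (4998 of 16122 genes called, against 3493) and to 8 without HSC replicate 2, with 4 to 8 over the libraries left out. One of these 8 was Hoxb5, which passed the filter there through HSC alone. It was also the fifth call with no filter, with all 8 groups in 1 fit and without each of 6 other libraries. A mean CPM of at least 5 left 6 of the 9 to be tested in each set of mice, without Hoxb5. It gave 3 calls in PBS mice, against 4. In β-glucan mice it gave 4, against 6 of which Hoxb5, passing the main filter through HSC alone, was 1. Without β-glucan replicate 1, HSC at day 7 went from 0 to 1, with 0 to 1 over the libraries left out. In MPP at day 28, β-glucan against PBS went from 0 to 1 (Hoxa9) with DESeq2's Wald test and to 1 with the replicate number as a block (0.38, adjusted p = 0.0399). The block gave 6 calls in PBS mice (3516 of 16122 genes called; adding Meis1, adjusted p = 0.0311, and Hlf, adjusted p = 0.0248). In MPP against HSC of β-glucan mice each library correlated best with its own number, a hint from the data and not from the design. The cause of these changes was not tested.

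Of 1519 values of single members under the alternatives, 1503 kept their side of the threshold, 16 passed it, 0 lost it and 0 called values changed sign. Only genes tested in both fits were counted. Calls that went because a filter removed the gene, as with a mean CPM of at least 5, are not among them. Of 470 values of 18 related factors, 440 kept their side and 30 lost it, mainly Pbx3, and Lyl1 and Myc in MPP with β-glucan. Counts of all genes called moved as well. With β-glucan they were 1102 in HSC at day 7 against 500 to 1971 over all alternatives, and 6 at day 28 against 1 to 598. They were 733 in MPP against 164 to 1301, and 7 after 5-FU against 2 to 147. For MPP against HSC they were 3493 in PBS mice against 2004 to 5050, and 5678 in β-glucan mice against 4605 to 6706. For the effects, 866 calls of day 28 against day 7 went to 445 to 1611, 18 of 5-FU against day 28 to 6 to 151, and 1 of MPP against HSC to 1 to 3. With library totals alone, the share of higher genes among those called went from 44.2 to 61.2% for MPP against HSC in PBS mice, from 49.6 to 67.8% in β-glucan mice, from 58.8 to 85.7% for β-glucan in MPP, from 85.7 to 97.3% after 5-FU and from 46.5 to 68.4% for day 28 against day 7, whose median over all genes moved by 0.13 (log2). Hoxb5, with 0 to 3 counts in MPP, is limited by depth.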
